A study of Mus musculus with 6 samples.

Results

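A set of 35 genes that mark macrophages of the fetal heart was followed through RNA sequencing of mouse heart ventricles at E17.5 (embryonic day). The genes were listed by symbol (pan-myeloid markers, markers of resident macrophages and of recruited monocytes, and the growth factor Csf1), and all 35 were found among the 25006 gene identifiers of the series. Of these, 34 passed the filter on low counts and were tested. The exception was Timd4, a phosphatidylserine receptor of long-lived resident macrophages, with 1 to 11 counts per library.

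The series holds 3 control and 3 null libraries on the NMRI background. The described cross joined Prox1 f/f females with VecadCreERT2; Prox1f/f males. Control libraries carry the genotype label WT, and null libraries the label VecadcreERT2; Prox1f/f, a tamoxifen-inducible Cre under the promoter of VE-cadherin, a gene of endothelial cells, with floxed Prox1 alleles. Tamoxifen (5 mg for each 40 g) was given to the mothers at E13.5 and E14.5, per the labels' protocols, so both groups were exposed. Whether each library came from 1 embryo is not given, so p-values reflect only how these samples spread, which may be technical.

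Libraries held 35195544 to 44330594 counts. Prox1 had 5164 to 6549 counts in controls and 5809 to 6924 in null libraries, so the targeted gene was not lower and passed the test as 1.11-fold higher (edgeR, adjusted p = 0.0331). Cardiomyocytes also express Prox1 and the deleted part is not named, so its counts do not settle the labels. Esr1, the mouse counterpart of the human receptor gene that supplies the ERT2 part of the Cre, had 9 to 19 counts in controls and 244 to 298 in null libraries. The second group is called null-labelled, and directions are taken from the labels alone. The cardiomyocyte markers Myh6, Myh7 and Tnnt2 each had at least 275966 counts in every library. Null-labelled 1 and null-labelled 3 held Xist (1798 and 5738 counts) together with counts of 4 Y-linked genes (9218 and 9952). Controls 1 and 2 held mainly the Y-linked genes (11143 and 8735 counts, against 28 and 29 of Xist). Control 3 and null-labelled 2 held mainly Xist (49485 and 50586 counts, against 175 and 190 of the Y-linked genes). Neither was a term in the tests. Results are also given without null-labelled 1 and 3, which leaves null-labelled 2 alone in its group. Control 3 held 322 counts of the liver gene Alb, against 3 to 125 in the other libraries, and null-labelled 2 held 140 counts of the lung gene Sftpc, against 0 to 10.

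Macrophages settle in the heart before birth, from yolk sac and fetal liver progenitors. The receptor encoded by Csf1r, bound by the ligands CSF1 and IL-34, keeps them alive, and the transcription factor PU.1, encoded by Spi1, sets the myeloid programme. In the heart they clear dying cells and lie close to coronary and lymphatic vessels. In whole ventricle a lower or higher level of a marker can come from the number of such cells or from RNA per cell. It can also come from other cell types that express the same gene. These sources cannot be told apart here.

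Among the tested genes 4 were higher in null-labelled ventricles: Siglec1, Ctss, Cx3cr1 and Mrc1. The promoters of 3 of them are printed here because these are the genes on which the comparison turns; for Siglec1 none was matched. Sequences are from RefSeq (GRCm38.p6), from 250 bases before to 50 bases after the start of transcription, 5′ to 3′ on the strand of the gene. Capitals mark matches on either strand to GAGGAA, the core bound by PU.1, or to the interferon-stimulated response element (2 copies of GAAA with any 2 bases between them). The windows are chr3:95526536-95526835 (+) for Ctss, chr9:120068247-120068546 (-) for Cx3cr1 and chr2:14229164-14229463 (+) for Mrc1.
Ctss: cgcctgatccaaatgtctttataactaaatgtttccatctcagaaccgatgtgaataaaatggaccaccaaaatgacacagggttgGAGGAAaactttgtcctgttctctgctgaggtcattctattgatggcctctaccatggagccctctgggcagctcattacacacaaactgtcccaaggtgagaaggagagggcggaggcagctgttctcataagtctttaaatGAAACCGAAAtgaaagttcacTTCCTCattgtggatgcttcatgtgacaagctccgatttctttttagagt
Cx3cr1: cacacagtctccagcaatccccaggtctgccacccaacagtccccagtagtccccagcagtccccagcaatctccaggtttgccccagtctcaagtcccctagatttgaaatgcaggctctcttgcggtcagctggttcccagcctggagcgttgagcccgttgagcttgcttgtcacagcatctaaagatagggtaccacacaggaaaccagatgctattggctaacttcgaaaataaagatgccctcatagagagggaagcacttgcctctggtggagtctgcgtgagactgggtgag
Mrc1: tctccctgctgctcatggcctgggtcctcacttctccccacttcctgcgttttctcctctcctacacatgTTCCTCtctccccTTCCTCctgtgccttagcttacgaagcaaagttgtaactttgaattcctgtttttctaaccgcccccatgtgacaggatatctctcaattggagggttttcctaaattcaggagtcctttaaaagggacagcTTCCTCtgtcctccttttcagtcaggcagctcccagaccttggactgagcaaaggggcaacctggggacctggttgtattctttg

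Ctss was the only one of these 3 with a match to the interferon-stimulated element, GAAACCGAAA, at -21 to -12 from the start, and it also held the PU.1 core at -164 to -159 and, on the other strand, at 1 to 6. Mrc1 held the PU.1 core on the other strand at -180 to -175, -167 to -162 and -35 to -30. Cx3cr1 held neither motif in this window. Promoters were matched for 27 of the 35 genes, 31 windows in all. The PU.1 core was in 17 of the 31 windows (54.8%), against 28.3% of all 32851 promoters of the same length. The interferon-stimulated element was in 3 (Ctss, Aif1 and Cybb; 9.68%), against 3.44%. Another motif that was searched, not named here, was in 1 window (3.23%), against 8.3% of all promoters, so its share went the other way. A match is a description of the letters and not a bound site.

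Levels were compared between genes per kilobase of exon, as CPM (counts relative to library size, after TMM scaling) divided by exon length. Exon length was that of all annotated exons of a gene, merged over its transcripts. A gene with long annotated exons that are little used therefore reads too low, and the order of genes depends partly on annotation. In controls the 34 tested genes spanned an 87.0-fold range. Stab1, a scavenger receptor that endothelial cells express too, was highest at 13.1 CPM per kilobase, followed by the lysozyme gene Lyz2 at 10.9 and the adaptor gene Tyrobp at 5.03. The lowest tested was Ms4a7, a tetraspanning membrane protein gene of macrophages, at 0.150 CPM per kilobase. Of the 35 genes, 18 reached 1 CPM per kilobase in controls. The lysozyme value is uncertain because Lyz1 is a near copy (13 to 29 counts per library) with which reads could be shared.

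**Figure D1:**
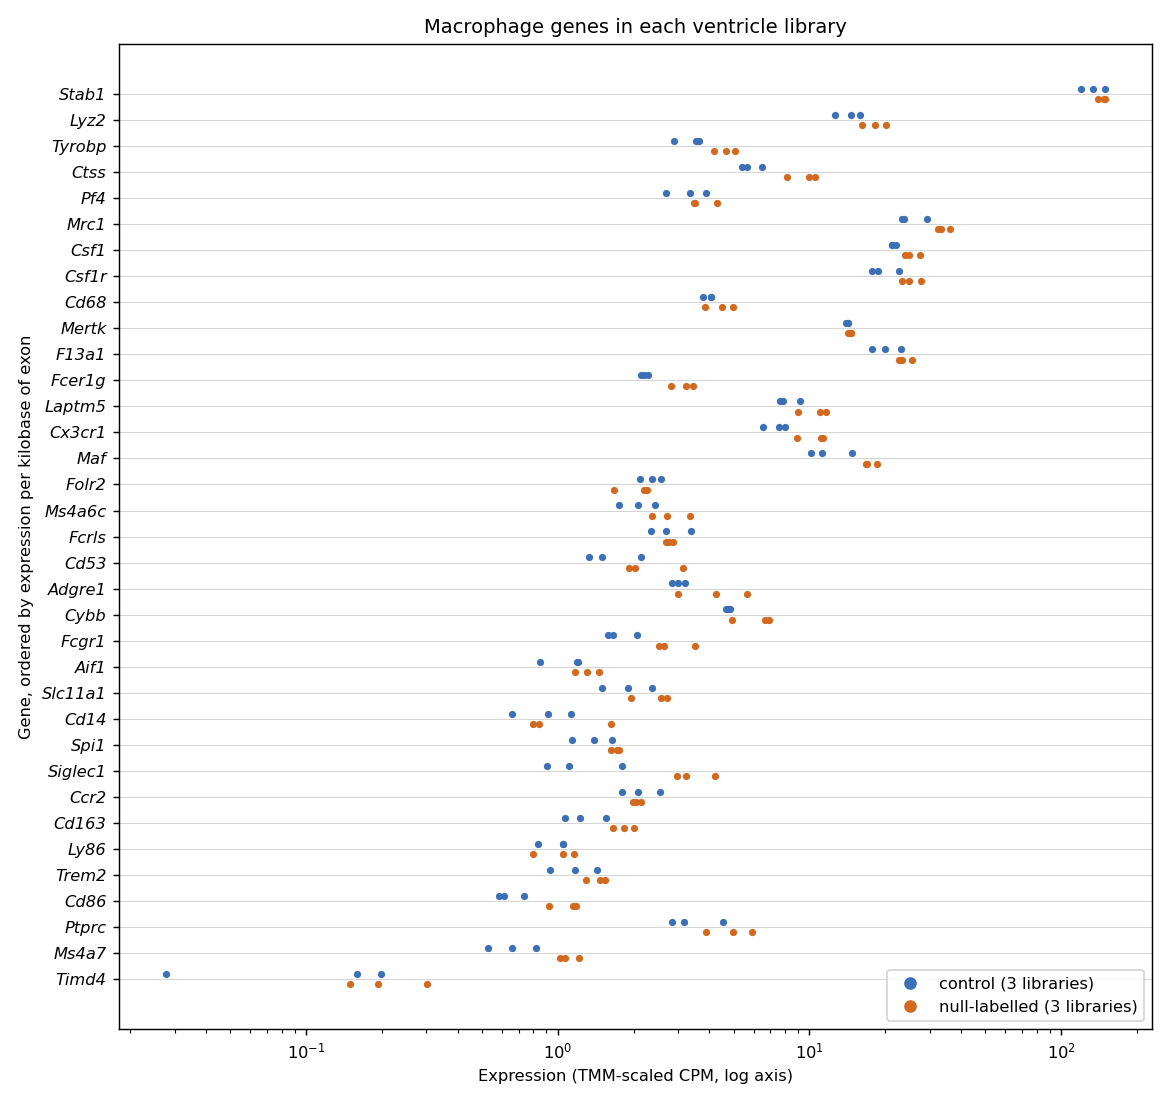
Expression of the 35 macrophage genes in each library (horizontal log axis, scaled CPM; each point is 1 library; genes ordered from top to bottom by mean expression per kilobase of exon). For 16 of the 34 tested genes all 3 null-labelled points lie to the right of all 3 control points; Stab1 is the highest and Timd4 the lowest.

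The difference between null-labelled and control libraries was tested with edgeR's quasi-likelihood method over all 14815 tested genes, with Benjamini-Hochberg adjustment. Of the 34 tested macrophage genes 4 rose (11.8%), where 2.43% of all tested genes were called higher, and 0 fell in edgeR, where 2.98% were called lower. No macrophage gene below 0 had an unadjusted p under 0.05, and DESeq2 and limma-voom also called 0 lower. The other 30 did not pass, though 19 genes had an unadjusted p under 0.05 (20.5% of all genes did). DESeq2 called 9 higher, where it called 3.67% of all genes higher, and limma-voom 4, where it called 2.08%. In 16 genes (47.1%) every null-labelled library lay above every control, against 12.7% of all tested genes, and in 0 every null-labelled library lay below, against 13.9%. The log2 fold change was above 0 in 31 of 34, with a median of 0.36, while over all tested genes the median was -0.004 and 48.8% lay above 0. All 34 genes exceeded the filter's 0.261 CPM in each of the 6 libraries, so none was tested only through the group where it was high.

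The count of called genes depended on single libraries. Leaving out control 1, 2 or 3 gave 2, 1 and 7 calls, and leaving out null-labelled 1, 2 or 3 gave 1, 1 and 2, while the share of all genes called in either direction ranged from 1.72% to 6.27% (5.41% with all 6 libraries). Without null-labelled 1 and 3 together all 35 genes, Timd4 included, were tested. That fit takes its spread from the controls, and the single null-labelled library left is assumed to vary like them. The median log2 fold change stayed between 0.29 and 0.45 without any single library and was 0.39 without the pair.

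Siglec1 encodes sialoadhesin, a sialic acid receptor of tissue macrophages that is also known as interferon-inducible. It stood at 1.79, 1.11 and 0.906 CPM in controls 1, 2 and 3 and at 4.20, 2.97 and 3.22 CPM in null-labelled 1, 2 and 3. The lowest null-labelled library lay above the highest control. The gene (chromosome 2, 131069220 to 131086765, GRCm38) was 2.69-fold higher, a log2 fold change of 1.43 ± 0.25 (SE; adjusted p = 0.0161), the highest among the macrophage genes tested. The adjusted p was 0.0627 without control 2, 0.0538 without null-labelled 1, 0.0539 without null-labelled 3 and 0.329 without null-labelled 1 and 3.

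Ctss encodes cathepsin S, a lysosomal cysteine protease that trims the invariant chain of MHC class II. Controls had 5.41, 5.64 and 6.48 CPM and null-labelled libraries 9.95, 10.6 and 8.13 CPM, without overlap. Ctss (chromosome 3, 95526786 to 95556403) was 1.63-fold higher, with a log2 fold change of 0.71 ± 0.12 (adjusted p = 0.0132). The call was lost without null-labelled 2 (adjusted p = 0.0578) and without null-labelled 1 and 3 (0.114), and held without any other single library (adjusted p up to 0.0491).

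Cx3cr1, the receptor for the chemokine fractalkine, is high in embryonic macrophages. Its values were 6.54, 8.0 and 7.56 CPM in controls and 11.1, 11.3 and 8.96 CPM in null-labelled libraries. Null-labelled 3 was the lowest of its group and still above every control. The log2 fold change of Cx3cr1 (chromosome 9, 119901616 to 120069879) was 0.51 ± 0.12 (adjusted p = 0.0371), and the call held without null-labelled 3 (0.0383) but not without each other library (0.0917, 0.0634 and 0.0532 without controls 1, 2 and 3; 0.125 and 0.142 without null-labelled 1 and 2). Limma-voom also missed it (adjusted p = 0.0577), and without null-labelled 1 and 3 the adjusted p was 0.214.

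Mrc1 encodes the mannose receptor CD206, an endocytic receptor read here as a marker of resident macrophages. The part of endothelial cells in its value was not tested. Controls had 23.3, 23.8 and 29.4 CPM and null-labelled libraries 36.2, 33.2 and 32.3 CPM. Control 3 was the highest control and lay 2.92 CPM below the lowest null-labelled library. The log2 fold change of Mrc1 (chromosome 2, 14229392 to 14332057) was 0.41 ± 0.09 (adjusted p = 0.0380). It held without control 3 (0.00359) and was lost without control 1 (0.0850), control 2 (0.121), null-labelled 1 (0.119), null-labelled 2 (0.111), null-labelled 3 (0.0827) and the pair of null-labelled 1 and 3 (0.418).

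**Figure D2:**
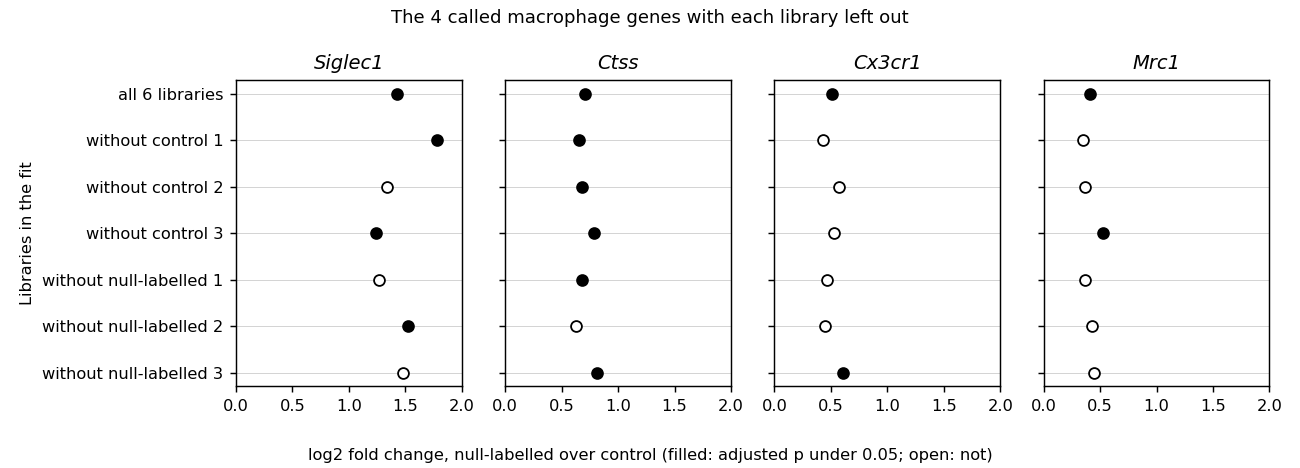
Log2 fold change (horizontal axis) of the 4 called macrophage genes with all 6 libraries and with each library left out in turn (vertical axis); filled points have an adjusted p under 0.05. The points stay above 0 throughout, from 0.35 for Mrc1 without control 1 to 1.78 for Siglec1 without control 1, and Ctss loses its call only without null-labelled 2.

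The CSF1 axis and the lineage transcription factors lay above 0 in 4 of 4 genes, and 0 of 4 passed in edgeR. Csf1, the ligand, made by stromal and endothelial cells rather than by macrophages alone, had 21.3, 22.0 and 21.3 CPM in controls and 27.5, 24.8 and 24.0 CPM in null-labelled libraries. The groups did not overlap, and the log2 fold change was 0.24 ± 0.06 (adjusted p = 0.0589; 0.0478 in DESeq2). Csf1r, its receptor (chromosome 18, 61100598 to 61132149), had 18.8, 17.8 and 22.6 CPM in controls and 27.9, 25.0 and 23.2 CPM in null-labelled libraries. Control 3 came within 0.61 CPM of null-labelled 3. The log2 fold change of Csf1r was 0.36 ± 0.10 (adjusted p = 0.0766), and it passed without control 3 (0.0162) and in DESeq2 (0.0160). Maf, which encodes c-Maf, is read here as a factor of resident macrophages, and the part of endothelial cells in its value was not tested. Maf had 11.2, 10.1 and 14.8 CPM in controls and 18.5, 16.7 and 17 CPM in null-labelled libraries, again without overlap. Its log2 fold change was 0.53 ± 0.13 (adjusted p = 0.0555), and it passed without control 3 (0.00316), in DESeq2 (0.00234) and in limma-voom (0.0433). Spi1 itself was low (1.14 to 1.64 CPM in controls, 1.62 to 1.74 CPM in null-labelled libraries), overlapped between groups and gave a log2 fold change of 0.28 ± 0.19 (adjusted p = 0.459).

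Of 9 leukocyte and general myeloid markers, 9 lay above 0 and 0 passed in edgeR. Lyz2, the macrophage lysozyme, had 12.6, 14.6 and 15.9 CPM in controls and 20.1, 18.3 and 16.2 CPM in null-labelled libraries (log2 fold change 0.34 ± 0.10, adjusted p = 0.0921). It was the only one of the 9 whose groups did not overlap, and it passed in DESeq2 (0.0450) and without control 3 (0.0492). Adgre1, which encodes the F4/80 antigen, ranged from 2.83 to 3.20 CPM in controls and had 5.64, 4.26 and 3.00 CPM in null-labelled libraries. Null-labelled 3 thus stood among the controls while null-labelled 1 was the highest of all libraries, and the log2 fold change was 0.51 ± 0.21 (adjusted p = 0.214). Ptprc, the leukocyte common antigen CD45, had 4.54, 2.83 and 3.17 CPM in controls and 5.89, 4.95 and 3.87 CPM in null-labelled libraries, so control 1 exceeded null-labelled 3 (log2 fold change 0.47 ± 0.21, adjusted p = 0.249). Cd53, a leukocyte tetraspanin, had 2.14, 1.33 and 1.5 CPM in controls and 1.92, 3.14 and 2.03 CPM in null-labelled libraries, with null-labelled 2 highest (log2 fold change 0.50 ± 0.25, adjusted p = 0.301). Laptm5, a lysosomal membrane protein of blood cells, gave a log2 fold change of 0.36 ± 0.12 (adjusted p = 0.108). The others were Slc11a1, the phagosomal metal transporter (0.32 ± 0.21), Aif1, the actin-binding protein IBA1 (0.27 ± 0.22), Cd68, a lysosomal glycoprotein (0.16 ± 0.13), and Ly86, the partner of the receptor RP105 (0.03 ± 0.23), with adjusted p from 0.435 to 0.964. The value of Ly86 turned below 0 without control 2, null-labelled 1 or null-labelled 2 (-0.071, -0.006 and -0.085).

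Activating receptors and their adaptors numbered 5, of which 4 lay above 0 and 0 passed in edgeR. Fcgr1, the high-affinity IgG receptor CD64, had 1.66, 2.06 and 1.59 CPM in controls and 3.51, 2.53 and 2.64 CPM in null-labelled libraries. Every null-labelled library lay above every control, the log2 fold change was 0.71 ± 0.19 (adjusted p = 0.0599), and DESeq2 called it (0.0489). Fcer1g, the signalling chain shared by Fc receptors, had 2.20, 2.14 and 2.29 CPM in controls and 3.46, 3.22 and 2.81 CPM in null-labelled libraries (log2 fold change 0.51 ± 0.15, adjusted p = 0.0762). Tyrobp, the adaptor DAP12 that signals for TREM2, had 2.89, 3.64 and 3.54 CPM in controls and 4.65, 5.06 and 4.16 CPM in null-labelled libraries (log2 fold change 0.47 ± 0.14, adjusted p = 0.0927). Neither adaptor gene overlapped between the groups, and neither passed in DESeq2 or limma-voom. Trem2, a lipid-sensing receptor, overlapped (0.28 ± 0.21, adjusted p = 0.525). Fcrls, a scavenger receptor-like gene best known from microglia, gave a log2 fold change of -0.01 ± 0.16 (adjusted p = 0.977), with all 3 null-labelled libraries (2.69 to 2.86 CPM) inside the control range of 2.34 to 3.37 CPM; the value was 0.139 without control 3 and 0.009 without null-labelled 1.

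Beside Siglec1 and Mrc1, the scavenger, uptake and resident markers held 6 tested genes that did not pass. Cd163, the haemoglobin scavenger receptor, had 1.07, 1.22 and 1.56 CPM in controls and 2.01, 1.65 and 1.84 CPM in null-labelled libraries, without overlap (log2 fold change 0.52 ± 0.20, adjusted p = 0.176). F13a1, the coagulation factor XIII A chain, had 17.8, 19.9 and 23.0 CPM in controls and 25.5, 22.6 and 23.3 CPM in null-labelled libraries (0.24 ± 0.09, adjusted p = 0.186), and passed without control 3 (0.0382). Pf4, the platelet factor that macrophages and megakaryocytes share, gave a log2 fold change of 0.19 ± 0.17 (adjusted p = 0.587), and Stab1 of 0.12 ± 0.08 (adjusted p = 0.452). Mertk, which takes up apoptotic cells, was tight in both groups, at 14.0 to 14.2 CPM in controls and 14.2 to 14.7 CPM in null-labelled libraries. Its groups did not overlap, but the difference was only 0.04 ± 0.06 on the log2 scale (adjusted p = 0.777).

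Folr2, the folate receptor beta of resident macrophages, was the lowest by log2 fold change, at -0.21 ± 0.18 (adjusted p = 0.570). Its values were 2.57, 2.36 and 2.12 CPM in controls and 1.67, 2.26 and 2.20 CPM in null-labelled libraries, so null-labelled 1 was the lowest of all libraries and the other 2 null-labelled libraries lay among the controls. The Folr2 exons overlap an antisense gene over 63.1% of their length, and those of Ms4a6c overlap an opposite-strand transcript over 53.1%. The strand setting of the counting is not given in the sources used here, so both values are uncertain. The same limit holds for Csf1r, whose exons overlap those of the opposite-strand gene Hmgxb3 (45.0 CPM in controls) over 15.1% of their length, and for Maf, with an antisense overlap of 5.34%. Timd4, the untested gene, had 7, 1 and 7 counts in controls against 6, 11 and 8 in the null-labelled group.

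The chemokine receptors differed from each other in value. Against the rise of Cx3cr1, Ccr2, the receptor that brings monocytes from blood, had 1.79, 2.08 and 2.55 CPM in controls and 2.14, 2.04 and 1.98 CPM in null-labelled libraries. The null-labelled values lay inside the control range, with a log2 fold change of -0.06 ± 0.18 (adjusted p = 0.903). Without control 3 the Ccr2 value was 0.09, with adjusted p = 0.826. Whether the changes of the receptors differ was not tested.

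Besides Ctss, the genes of presentation and innate defence lay above 0 without passing. Cd86, a costimulatory ligand for T cells, had 0.614, 0.583 and 0.736 CPM in controls and 1.14, 1.18 and 0.920 CPM in null-labelled libraries (log2 fold change 0.75 ± 0.23, adjusted p = 0.0994). Ms4a7 had 0.659, 0.528 and 0.821 CPM in controls and 1.07, 1.02 and 1.21 CPM in null-labelled libraries (0.72 ± 0.24, adjusted p = 0.123). Cybb, the catalytic subunit of the phagocyte NADPH oxidase, had 4.67 to 4.82 CPM in controls and 6.89, 6.63 and 4.94 CPM in null-labelled libraries (0.37 ± 0.14, adjusted p = 0.161). In these 3 genes the groups did not overlap, although for Cybb null-labelled 3 was only just above the controls. Ms4a6c overlapped between groups (0.44 ± 0.19, adjusted p = 0.233). Its reads could be shared with the paralogs Ms4a6b (0.55 ± 0.21, adjusted p = 0.1775) and Ms4a6d (1.08 ± 0.22, adjusted p = 0.0238). Ms4a6d was itself called higher, and the part of such reads in the Ms4a6c value was not tested. Cd14, the lipopolysaccharide co-receptor, was higher in null-labelled 3 alone, at 1.62 CPM against 0.659 to 1.1 CPM elsewhere (0.29 ± 0.33, adjusted p = 0.685), and its log2 fold change was -0.122 without that library.

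**Figure D3:**
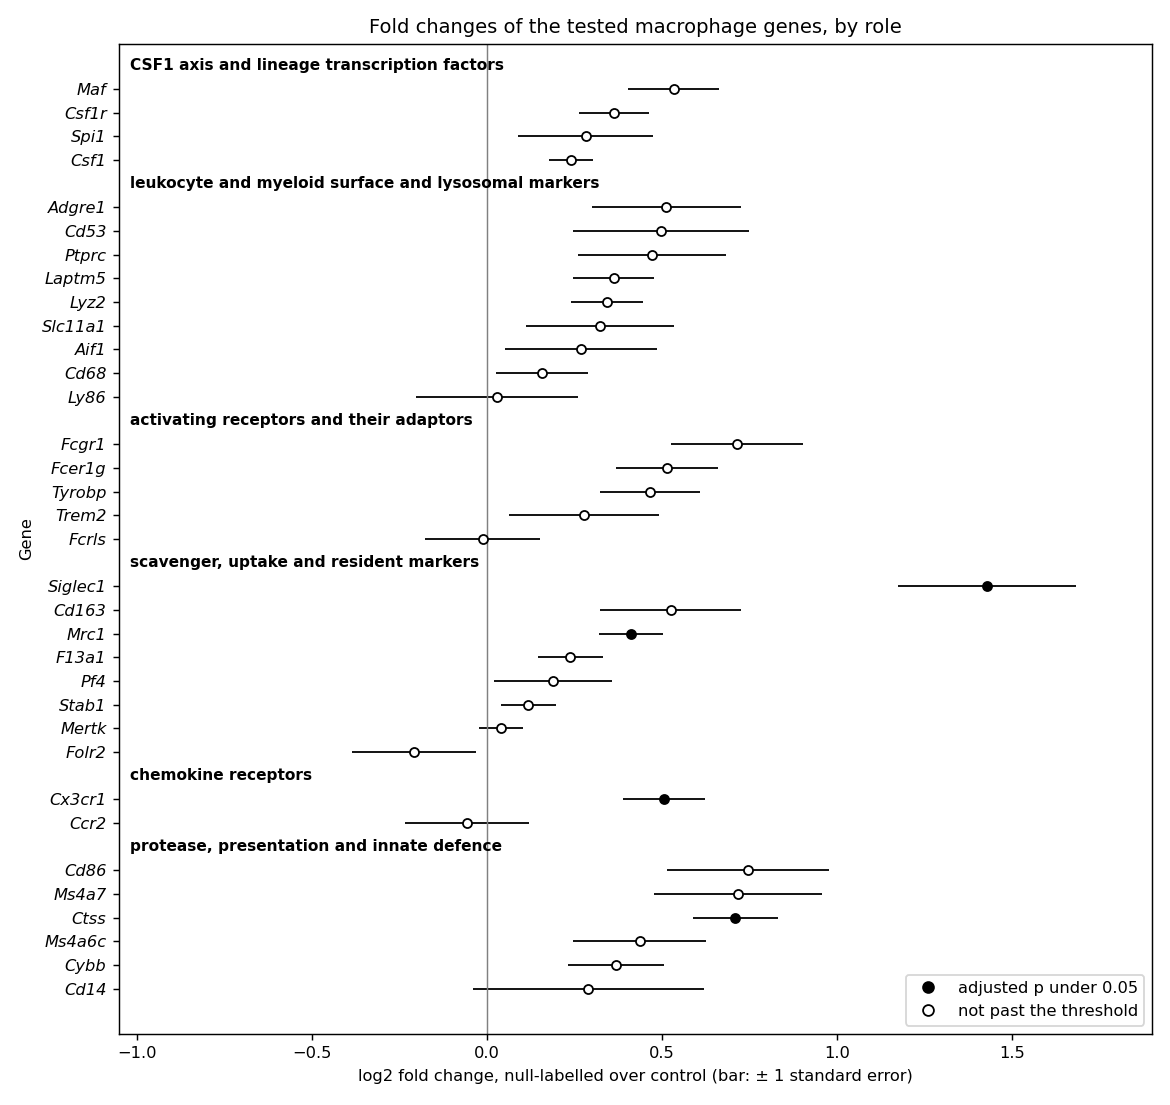
Log2 fold change of the 34 tested macrophage genes, null-labelled over control (horizontal axis, bars ± 1 SE), grouped by role; filled points have an adjusted p under 0.05. The 4 filled points are Siglec1 (1.43), Ctss (0.71), Cx3cr1 (0.51) and Mrc1 (0.41), and 3 genes lie below 0 (Fcrls, Ccr2 and Folr2).

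The libraries of a group were not alike in these genes. Relative to the control mean, on the log2(CPM + 0.1) scale, the median over the 34 genes was -0.04 in control 1, -0.04 in control 2 and 0.09 in control 3, and 0.48, 0.38 and 0.23 in null-labelled 1, 2 and 3. Over all tested genes these medians were within 0.003 of 0. Control 3 stood above the control mean in 25 of 34 genes, and null-labelled 1, 2 and 3 in 31, 31 and 28. Siglec1 exceeded the library's own median over the genes by 1.23, 0.83 and 1.10 in null-labelled 1, 2 and 3, and Ctss by 0.28, 0.46 and 0.25. Csf1r stayed within 0.04 of it in these 3 libraries, while Mertk was below it by 0.42, 0.33 and 0.22 (values of -0.42, -0.33 and -0.22). Libraries and genes are shown together in the map of deviations.

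**Figure D4:**
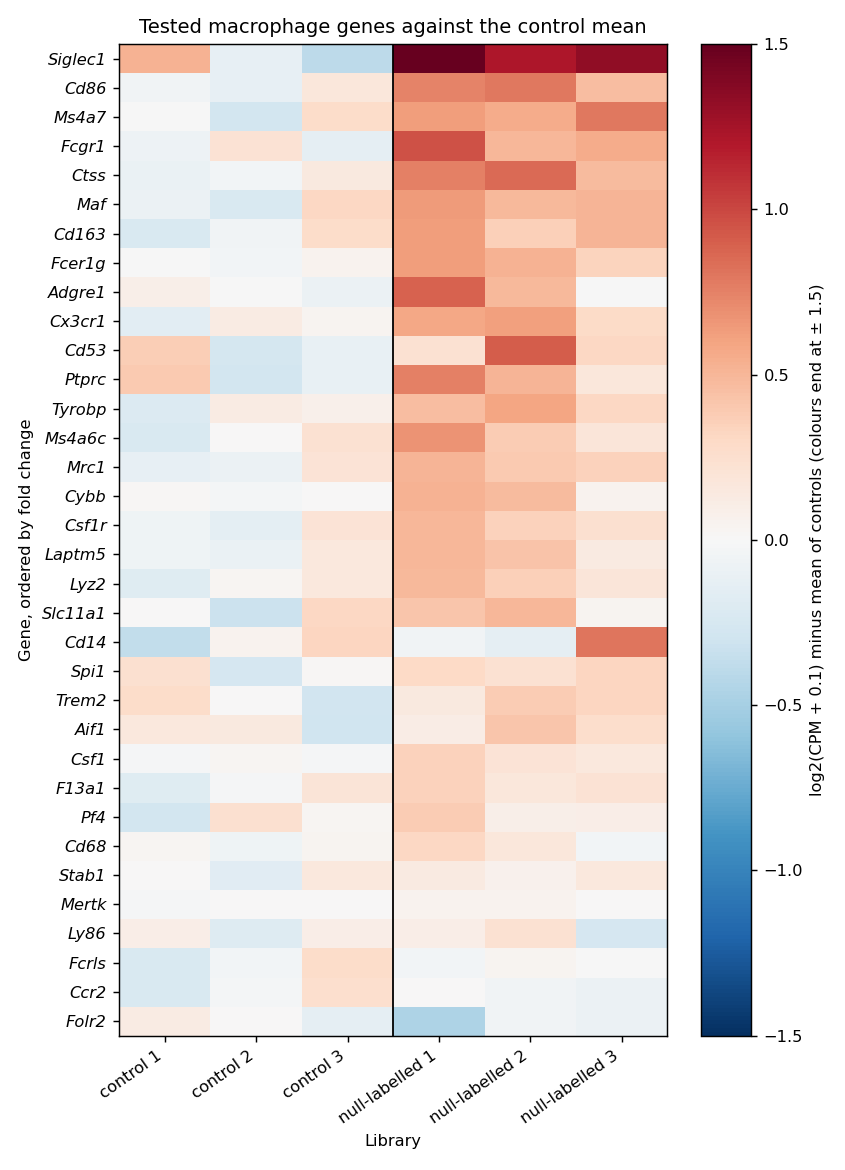
Difference of each library from the mean of controls for the 34 tested macrophage genes, on the log2(CPM + 0.1) scale (colour; red above, blue below), with genes ordered by fold change and the 3 controls left of the line. Red fills most of the null-labelled columns, most weakly in null-labelled 3 (median 0.23), and Folr2 at the bottom is bluest in null-labelled 1.

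Genes of the same pathways, read from lists chosen with earlier results of these data known, were followed in the same fit. The subunits of complement C1q, which tags cells for uptake and is made by tissue macrophages, rose together: C1qa by a log2 fold change of 0.72 ± 0.15 (adjusted p = 0.0256), C1qb by 0.57 ± 0.12 (0.0267) and C1qc by 0.53 ± 0.10 (0.0193). These were the 3 called of 9 tested genes in the list of complement and its receptors. Leaving out control 1 gave 1 call in that list, control 2, null-labelled 1 or null-labelled 2 gave 0, control 3 gave 4, null-labelled 3 gave 3 and the pair of null-labelled 1 and 3 gave 0, with 1 in limma-voom; with all libraries 6 of the 9 had an unadjusted p under 0.05. Itgam, the complement receptor integrin CD11b, gave a log2 fold change of 0.67 ± 0.18 (adjusted p = 0.0681).

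Irf8, the interferon regulatory factor of monocyte and dendritic development, was at a log2 fold change of -0.05 ± 0.08 (adjusted p = 0.808). Of the 9 tested growth factor and receptor genes 1 fell, Kitl, the stem cell factor (85.1 ± 4.24 against 57.7 ± 7.23 CPM, SD, n = 3; log2 fold change -0.56 ± 0.09, adjusted p = 0.0168), a call lost without control 3 (0.0501) or null-labelled 3 (0.0565) and kept without null-labelled 1 and 3 (0.0200). Il34, the second ligand of the CSF1 receptor, was low, with 15 to 37 counts per library and a log2 fold change of 0.44 ± 0.35 (adjusted p = 0.538).

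Of 16 tested genes of apoptotic cell uptake 3 rose and 1 fell. Abca1, the cholesterol exporter, had the smallest p of the list (log2 fold change 0.68 ± 0.04, adjusted p = 4.89e-05) and stayed called without any single library and without null-labelled 1 and 3 (0.0116). Dock2, an exchange factor for Rac in leukocytes, had 0.90 ± 0.17 (adjusted p = 0.0205) and Pros1, the bridging ligand protein S, 0.35 ± 0.06 (0.0106). Mfge8, another bridging ligand, fell by 0.24 on the log2 scale (adjusted p = 0.0230). The Dock2 call was lost without control 2 (0.0589), null-labelled 1 (0.0725) or null-labelled 2 (0.0682), that of Pros1 without null-labelled 2 (0.0503), and that of Mfge8 without control 2 (0.0720), null-labelled 2 (0.0666) or null-labelled 3 (0.0590). Without null-labelled 1 and 3 all 3 of these calls were lost (adjusted p of 0.273, 0.104 and 0.281 for Dock2, Pros1 and Mfge8). Gas6, a ligand of MERTK, gave a log2 fold change of 0.05 ± 0.04 (adjusted p = 0.504), and its receptor gene Axl 0.25 ± 0.10 (adjusted p = 0.214).

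In the lysosomal list 4 of 20 rose, Ctss with Ctsl (0.29 ± 0.05, adjusted p = 0.00991), Lgmn (0.22 ± 0.04, 0.0174) and Ctsc (0.34 ± 0.06, 0.0185), all proteases, and 1 fell, Ctsz (-0.21 ± 0.05, 0.0376). The number of higher genes was 2 without null-labelled 1 or null-labelled 2, 3 without null-labelled 3, 4 without any control and 0 without null-labelled 1 and 3. Ctsz was called without control 3 or null-labelled 1 and lost without each other library (0.0753 to 0.140) and without null-labelled 1 and 3 (0.312). These genes are expressed by many cell types of the ventricle.

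In several lists 0 genes were called by edgeR. Of 19 Fc receptor and signalling genes, 4 of them members of the macrophage set, an unadjusted p under 0.05 was reached by 8, and 1 was higher in DESeq2. For the 6 NADPH oxidase genes the number at an unadjusted p under 0.05 was 3, and for 6 MHC class II genes 1. It was 4 for 11 monocyte markers and 2 for 7 macrophage chemokines. DESeq2 and limma-voom called 0 in each of these 4 lists. Over all tested genes 20.5% had an unadjusted p under 0.05, a share to read beside these counts and those of later lists. EdgeR called 1 Fc receptor and signalling gene lower without control 3, and 1 monocyte marker lower without control 1. Cd74, the invariant chain, gave a log2 fold change of 0.63 ± 0.24 (adjusted p = 0.166), Ccl2, a ligand of CCR2, 0.47 ± 0.25 (0.331), and Cx3cl1, the ligand of CX3CR1, -0.21 ± 0.11 (0.346). Of the 6 tested MHC class II genes only 3 lay above 0, and the median log2 fold change of that list was -0.068. Among markers of resident macrophages Mrc1 was the only one called of 10 tested, and Lyve1, shared with lymphatic endothelium, had -0.11 ± 0.15 (adjusted p = 0.748). Among microglia-associated genes Cx3cr1 was the only one called of 11 tested, and P2ry12, a purine receptor, had 0.84 ± 0.35 (adjusted p = 0.211) from 8 to 25 counts per library.

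Other lists moved beside the macrophage genes. Of 26 interferon-induced genes 24 rose, and Ifit3 had the smallest p-value among them (log2 fold change 3.52 ± 0.31, adjusted p = 0.00127; reads could be shared with its near copy Ifit3b). Ifit1, an RNA-binding antiviral gene, was at 4.23 ± 0.37 (adjusted p = 0.00373), and the interferon pathway factor Irf7 was at 2.42 ± 0.35 (adjusted p = 0.0254). The summed level of this list was 172 to 235 CPM in controls and 368 to 524 CPM in null-labelled libraries, highest in null-labelled 1 and lowest of its group in null-labelled 2. The macrophage genes summed to 310 to 364 CPM in controls and 383 to 418 CPM in null-labelled libraries. This sum was highest in null-labelled 1 and lowest of its group in null-labelled 3. Stab1, which endothelial cells express too and which was not called, held 119.5 to 149.6 CPM of it in controls. In null-labelled libraries Stab1 held 140.4 to 150 CPM. The number of called interferon-induced genes was 24, 12 and 11 without controls 1, 2 and 3. It was 15, 18 and 11 without null-labelled 1, 2 and 3, and 25 in DESeq2 and in limma-voom. Without null-labelled 1 and 3 together the median log2 fold change of this list was 1.303, against 1.725 with all libraries. The part of the interferon-induced genes in the macrophage result was not tested.

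Of 6 tested mast cell markers 2 rose, Cma1, a chymase (log2 fold change 0.97 ± 0.21, adjusted p = 0.0288), and Hdc, which makes histamine (0.64 ± 0.14, 0.0336). The 9 mast cell markers summed to 8.15 to 13.47 CPM in controls and 17.5 to 23.0 CPM in null-labelled libraries, and the count of called genes was 0 without null-labelled 1, without null-labelled 3 or without both, 1 without control 1 or null-labelled 2, 3 in limma-voom and 4 in DESeq2. Mast cells share Fcer1g, Laptm5 and Ptprc with macrophages, and their part in those values was not tested. Markers of T cells summed to 1.84 to 2.07 CPM in controls and 1.57 to 1.82 CPM in null-labelled libraries, those of B cells to 0.500 to 0.614 and 0.533 to 0.660 CPM, and those of natural killer and innate lymphoid cells to 1.78 to 2.28 and 2.52 to 2.78 CPM. In these 3 lists 0 of 4 tested genes passed in edgeR, DESeq2 or limma-voom, and 0 had an unadjusted p under 0.05. The 11 neutrophil markers reached at most 16.95 CPM in a control and 15.02 CPM in a null-labelled library, with 0 of 8 tested called by any of these tools and 0 at an unadjusted p under 0.05. Of 4 tested dendritic cell markers 1 fell, Clec9a (-0.53 ± 0.13, adjusted p = 0.0485), a call lost in limma-voom (0.0528) without each single library (0.0719 to 0.144) and without null-labelled 1 and 3 (0.422), and of 8 platelet markers 0 were called by any tool and 1 had an unadjusted p under 0.05.

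Stromal markers moved as well. Of 11 endothelial markers 5 fell, and the list summed to 1660 to 1868 CPM in controls and 1487 to 1602 CPM in null-labelled libraries. The number called lower was 3, 5 and 5 without controls 1, 2 and 3, and 6, 1 and 1 without null-labelled 1, 2 and 3. Without null-labelled 1 and 3 together the median log2 fold change was -0.263, against -0.218 with all libraries. Of 10 fibroblast markers 3 rose, with a sum of 8418 to 9828 CPM in controls and 9952 to 11090 CPM in null-labelled libraries; leaving out control 1, 2 or 3 gave 2, 1 and 5 calls, leaving out null-labelled 1, 2 or 3 gave 1, 0 and 1, and leaving out null-labelled 1 and 3 together gave 0. Erythroid markers summed to 1747 to 5076 CPM in controls and 1208 to 1968 CPM in null-labelled libraries, with 0 of 7 called by edgeR and 2 at an unadjusted p under 0.05; DESeq2 called 1 lower and limma-voom 0. The liver markers summed to 3.27 to 24.1 CPM in controls, highest in control 3, and 8.69 to 11.2 CPM in null-labelled libraries, and the lung markers to 0.0455 to 0.141 and 0.363 to 5.53 CPM, highest in null-labelled 2. Of the thymus markers Foxn1 was at 0 in all 6 libraries and the list summed to at most 0.340 CPM. The part of these tissues and cell types in the values of the macrophage genes was not tested.

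**Figure D5:**
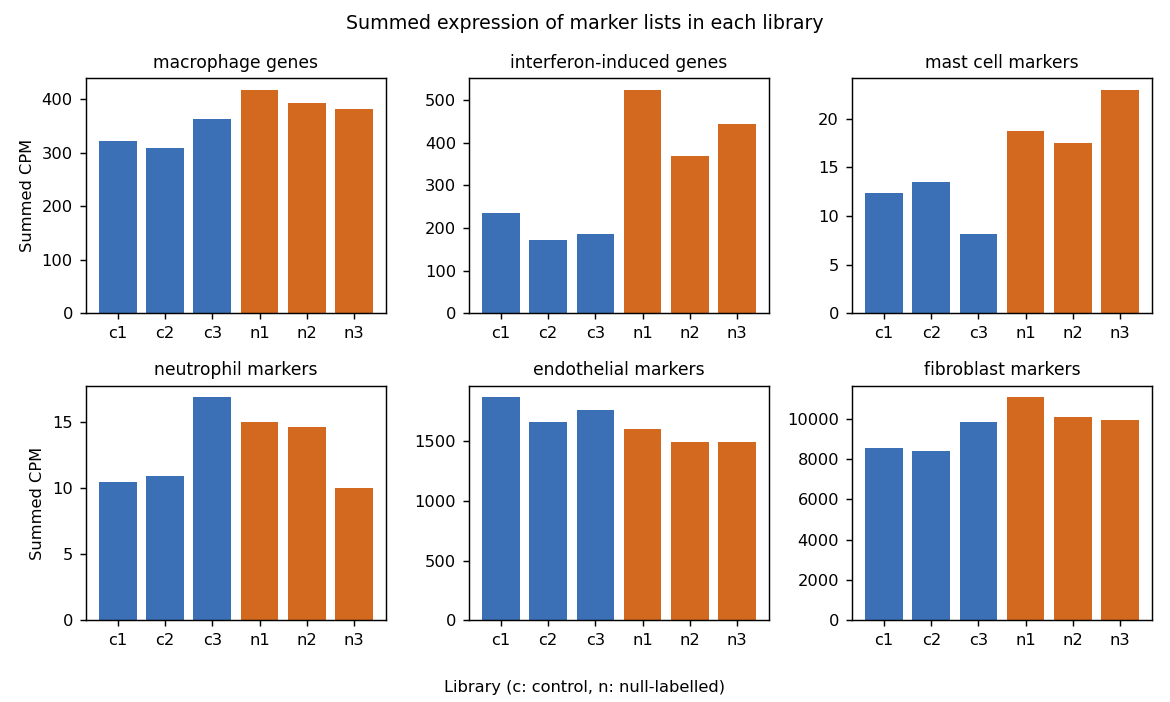
Summed expression (vertical axis, scaled CPM, from 0) of the macrophage genes and of 5 other marker lists in each library (c, control; n, null-labelled). Macrophage genes, interferon-induced genes, mast cell and fibroblast markers are higher in all 3 null-labelled libraries than in any control. Endothelial markers are lower, and neutrophil markers overlap. Stab1, which endothelial cells express too, is the largest single part of the macrophage sum.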

How the data were processed

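The authors deposited whole-number counts per gene for 3 control and 3 null libraries, as raw values. The tools listed, per the submitters' processing notes, are STAR, cutadapt 1.13, DESeq2 and HTSeq 0.6.1p1, and the build is mm10. Which tool did what, the annotation and the strand setting were not stated. Symbols and exon lengths came from GENCODE M21 of the same build, which matched 24991 of 25006 identifiers.

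With R 4.3.3, genes were filtered with filterByExpr, TMM-scaled and tested in edgeR 4.0.16 with its quasi-likelihood method (robust, group as the only term, two-sided, Benjamini-Hochberg over 14815 genes, called at adjusted p under 0.05). Adjusted p-values are from this test unless DESeq2 1.42.0 or limma-voom (limma 3.58.1) is named. Standard errors are the log2 fold change over the root of F. Every gene of the macrophage set may be named; from other lists up to 3 called genes of smallest p and a fixed set were allowed. Mfge8, Ctsc and Ctsz fell outside this and were named after their values were seen. The list of myeloid transcription factors and the name of 1 promoter motif are not reported here. The macrophage genes and all lists were chosen with earlier results of these data known. At this depth 3 counts equal 0.0677 to 0.0852 CPM. Simulated counts for 14815 genes had 50 genes changed at each fold. Recovery was 18% at 1.2-fold, 82% at 1.5-fold, 98% at 2-fold and 100.0% at 3-fold, with 13 false calls. Changed genes were picked only among genes averaging 1 CPM or more, and the shares were not split by expression level. The shares therefore do not give the recovery for macrophage genes of low expression, and genes below 1 CPM were not covered. Cd86 and Ms4a7, with control means of 0.644 and 0.669 CPM, were 1.68-fold and 1.64-fold higher and not called. No 2 libraries of a group were near-identical: the chi-square per gene between them was 9.21 to 27.9.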

Additional observations from a re-analysis of the deposited data

How the results depend on the processing

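The number of macrophage genes called higher, 4 of 34, was 7 with no filter on low counts, 9 with DESeq2 and 12 at a threshold of 0.1. It ranged from 1 to 7 when single libraries were left out. It was 0 without null-labelled 1 and 3, an alternative chosen after seeing the data. It was also 4 with DESeq2 size factors, upper quartile scaling, a minimum of 1 CPM in 3 libraries and limma-voom. In all 15 alternatives 0 were called lower, and the median log2 fold change stayed between 0.29 and 0.45. Over all genes, 801 calls became 1430 at the threshold of 0.1, 258 to 942 with single libraries left out and 52 without null-labelled 1 and 3. With replicate number as a block, 2 macrophage genes were called (Ctss and Siglec1) and 570 genes in all. Libraries with the same number correlated at -0.063, -0.056 and -0.127 in their deviations from group means, and no library correlated best with its own number. Taking deviations from the mean of only 3 libraries constrains these correlations, so they cannot decide whether the numbers pair the libraries.

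The sign turned for 4 genes, none of them called with all libraries. Fcrls (-0.01; -0.129 to 0.139 over single omissions) was 0.014 with limma-voom, 0.139 without control 3, 0.009 without null-labelled 1 and 0.035 without null-labelled 1 and 3. Ly86 (0.03; up to 0.169 over single omissions) was -0.071 without control 2, -0.006 without null-labelled 1 and -0.085 without null-labelled 2. Ccr2 was 0.086 without control 3 and -0.172 without control 1. Cd14 was 0.484 without control 3, -0.122 without null-labelled 3 and -0.167 without null-labelled 1 and 3. In each case the cause was not tested. Genes such as Timd4, with at most 11 counts, are too shallow here for a difference to be detectable.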
